A study of Mus musculus with 4 samples.

Results

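The insulin-like growth factor (IGF) system was followed in cultured mouse mammary fibroblasts through 9 genes: the ligands Igf1 and Igf2, the receptor Igf1r and the binding proteins Igfbp2, Igfbp3, Igfbp4, Igfbp5, Igfbp6 and Igfbp7. They were chosen by name, among the 12394 genes of the array, as the genes of probe sets annotated to a single symbol. A probe set is a group of short probes that together measure 1 transcript, and these 9 genes had 21 of them. Total RNA of second-passage fibroblasts from female FVB/N mice aged 9 weeks, grown in medium with 10% serum, was hybridised to 1 Affymetrix array for each of 4 genotypes. Normal Ets2-present fibroblasts came from Ets2db/loxP mice, and normal Ets2-null fibroblasts from Fsp-cre;Ets2db/loxP mice. PyMT Ets2-present fibroblasts came from PyMT;Ets2db/loxP mice and PyMT Ets2-null fibroblasts from PyMT;Fsp-cre;Ets2db/loxP mice. PyMT is the polyoma middle T oncogene, driven in the mammary epithelium by the MMTV promoter, so the fibroblasts themselves were not the cells it transformed. The Ets2db allele, a conventional knockout of the DNA-binding domain, was carried by every group, so Ets2-present cells had a single intact conditional allele. Cre, under the fibroblast-specific protein promoter, marked the Ets2-null mice and was absent from the others, so Cre and the loss of Ets2 cannot be told apart. How many mice gave the cells of an array is not given in the sources used here.

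IGF-I and IGF-II are small secreted hormones that signal growth and survival through the receptor tyrosine kinase encoded by Igf1r. Most IGF outside cells is held by binding proteins, which prolong its life, keep it from the receptor or, once cleaved by proteases, hand it over. In the mammary gland the stroma is a known source of IGF-I, which acts on the ductal epithelium. Values below are log2 levels as deposited, on which 1 unit is a 2-fold step, and differences are log2 differences between 2 arrays. Since each group had 1 array, no replicate error and no p-value can be given, and a difference of 2-fold or more is a description of these arrays. As a stand-in for technical spread, the log2 differences of the 2 brightest probe sets of the same gene were compared in 3378 genes. Their disagreement had an SD of 0.48 upon Ets2 loss in normal fibroblasts and 0.68 in PyMT fibroblasts. For PyMT against normal fibroblasts it was 0.51 with Ets2 and 0.70 without.

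The probe set for Ets2 itself read 11.86 with Ets2 and 11.89 without it in normal fibroblasts, and 11.21 with Ets2 and 11.22 without it in PyMT fibroblasts. Whether its probes lie inside the deleted exons could not be told, so it checks nothing about the deletion. Separately, the paper reports loss of ETS2 protein and of phospho-Ets2 staining in fibroblasts from PyMT;Fsp-cre;Ets2db/loxP mice. All 10 listed fibroblast markers were above the filter level of 4.63 on every array (the level is the 40th percentile of the table), with median levels between 11.56 and 12.58. Of 9 epithelial markers, Krt8, Cdh1, Cldn4 and Csn2 lay under that level on every array, as did Pecam1, Cdh5, Tie1, Vwf and Emcn among 8 endothelial markers. Other markers of these cells were measured above it. Krt5 was above it on every array, at 4.77 with Ets2 and 4.79 without it in normal and 5.53 and 5.24 in PyMT fibroblasts. Krt18 read 8.05 and 6.72 in normal fibroblasts with and without Ets2, and 4.23 and 4.49 in PyMT fibroblasts. Krt19 read 4.98 and 4.38 in normal and 7.36 and 7.21 in PyMT fibroblasts. Kdr read 6.12 and 6.80 in normal and 3.94 and 4.35 in PyMT fibroblasts. Epcam (5.09) and Krt14 (4.85) passed the filter through the PyMT Ets2-null array alone. Of 6 matched adipocyte markers Adipoq, Lep and Cidec were under it throughout, and the summed linear level of the list was 2868 and 2621 in normal and 4147 and 5192 in PyMT fibroblasts, with Ets2 and without. Fabp4 was higher in PyMT fibroblasts with Ets2 (2.32) and without it (3.17), as was Pparg (2.96 and 1.62). Lpl, the brightest marker of the list, makes up most of the sum and differed less (0.14 and 0.72). Upon Ets2 loss in PyMT fibroblasts the differences were 0.49 for Lpl, 0.03 for Fabp4 and -1.44 for Pparg. The part of these cell types in the IGF results was not tested. The PyMT Ets2-null array stood apart, with correlations of 0.959 to 0.969 with the others. It also gave the highest of the 4 readings in 39.7% of 9101 dim probe sets, those with a mean under the filter level, against 19.4% to 20.5% for each other array. Every comparison that uses this array rests on it alone, and the comparisons share arrays, so their values are set side by side and not taken as support for each other.

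Igfbp2 and Igfbp5 are neighbours on mouse chromosome 1, and Igfbp3 lies next to Igfbp1 on chromosome 11. The 250 bases before the start of 4 members are shown because their levels differed most between the arrays, or, for Igfbp5, because it adjoins Igfbp2, and because Ets2, the deleted factor, belongs to a family that binds sites around the core GGAA. The sequences are from RefSeq (GRCm38.p6), 5′ to 3′ on the strand of the gene, and capitals mark GGAA on either strand, so that TTCC is the core read on the other strand. They were found at chr1:72824230-72824479 on the plus strand (Igfbp2), chr1:72874866-72875115 on the minus strand (Igfbp5), chr11:7213924-7214173 on the minus strand (Igfbp3) and chr10:87860861-87861110 on the plus strand (Igf1).
Igfbp2: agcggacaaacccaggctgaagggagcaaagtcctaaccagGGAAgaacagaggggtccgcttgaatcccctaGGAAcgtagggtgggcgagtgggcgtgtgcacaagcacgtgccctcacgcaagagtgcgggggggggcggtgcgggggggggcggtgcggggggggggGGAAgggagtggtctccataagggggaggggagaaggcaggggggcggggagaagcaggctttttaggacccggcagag
Igfbp5: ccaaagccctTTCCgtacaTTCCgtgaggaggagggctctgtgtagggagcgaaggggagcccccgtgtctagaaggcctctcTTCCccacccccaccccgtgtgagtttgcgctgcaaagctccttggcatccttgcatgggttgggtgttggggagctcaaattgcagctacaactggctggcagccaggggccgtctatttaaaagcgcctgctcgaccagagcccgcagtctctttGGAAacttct
Igfbp3: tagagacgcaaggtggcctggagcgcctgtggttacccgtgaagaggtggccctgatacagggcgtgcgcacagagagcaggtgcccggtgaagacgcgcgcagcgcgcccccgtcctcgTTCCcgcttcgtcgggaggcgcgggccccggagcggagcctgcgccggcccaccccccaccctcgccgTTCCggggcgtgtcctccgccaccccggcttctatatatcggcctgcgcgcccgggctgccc
Igf1: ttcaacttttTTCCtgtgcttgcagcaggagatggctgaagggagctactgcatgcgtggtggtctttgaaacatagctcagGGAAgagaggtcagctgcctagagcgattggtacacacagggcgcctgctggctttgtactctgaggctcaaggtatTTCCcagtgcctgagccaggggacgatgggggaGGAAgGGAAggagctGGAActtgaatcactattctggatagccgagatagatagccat
GGAA occurred 3 times before this start of Igfbp2, 4 times before Igfbp5, 2 times before Igfbp3 and 6 times before Igf1. A further annotated start of Igfbp2 had 5. The core is common: 93.4% of 32851 such windows held it, with a median of 3, and 8.69% held 6 or more. The longer word CGGAAG, which contains the core, was in 0 of the 13 windows of the 9 genes and in 13.6% of all windows. TGANTCA is a loosened form of the site of AP-1 factors, with any base at N, and does not contain the core. It was in 2 of the 13 windows and in 6.75% of all windows. The match was TGAATCA before Igf1 and TGAGTCA before the further start of Igfbp2. These are matches of letters and not measured binding sites.

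Igf1, the ligand best known as the local effector of growth hormone, was lower in PyMT than in normal fibroblasts and higher without Ets2 in both. Its brightest probe set, 1452014_a_at, read 10.84 with Ets2 and 11.41 without it in normal fibroblasts, and 9.46 with Ets2 and 10.10 without it in PyMT fibroblasts. The 2 normal arrays thus lay above the 2 PyMT arrays, and within each pair the Ets2-null array was the higher. PyMT fibroblasts had 2.60-fold less Igf1 with Ets2 (log2 difference -1.38) and 2.48-fold less without it (-1.31). Without Ets2, Igf1 was 1.49-fold higher in normal (0.58) and 1.56-fold higher in PyMT fibroblasts (0.64) by this probe set. Both values were close to the SD of disagreement between probe sets. The other 2 probe sets kept this order, and in PyMT fibroblasts they were 2.03-fold and 2.45-fold higher without Ets2. Probe set 1419519_at read 9.80, 10.46, 8.17 and 9.19 in the same order of groups, and 1437401_at read 9.78, 10.52, 7.92 and 9.21. Over all 3, the PyMT difference ran from -1.86 to -1.38 with Ets2 and from -1.31 to -1.27 without it, and the Ets2 difference from 0.58 to 0.74 in normal and from 0.64 to 1.29 in PyMT fibroblasts. The median of the 10 fibroblast markers had the same order over the arrays, 12.28, 12.58, 11.56 and 12.16. Their summed linear level did not, at 49688, 54330, 41541 and 51487. In PyMT against normal fibroblasts 2 of them were higher and 8 lower with Ets2, and 5 were higher and 5 lower without it. Upon Ets2 loss 6 were higher and 4 lower in normal fibroblasts, and 7 were higher and 3 lower in PyMT fibroblasts. The part of these markers in the Igf1 levels was not tested. In bulk cultures fewer cells of a type and less RNA per cell cannot be told apart. Macrophages also make IGF-I. Their 12 markers, of which Itgam and C1qa were under the filter level on every array, had summed linear levels of 528, 473, 1233 and 866 in that order of groups. The median of the 10 that passed the filter was 5.01, 4.98, 5.85 and 4.72. In PyMT against normal fibroblasts 9 were higher and 1 lower with Ets2, and 5 were higher and 5 lower without it, where Lyz2 (1.98) and Cd68 (-1.54) lay far apart. The part of macrophages in the Igf1 levels was not tested.

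Igf2, the imprinted fetal ligand, was near background. Probe set 1448152_at read 3.45, 3.53 and 3.55 in normal Ets2-present, normal Ets2-null and PyMT Ets2-present fibroblasts and 5.16 in PyMT Ets2-null fibroblasts, the only reading above the filter level. Igf2 passed the filter through that array alone. The difference between PyMT Ets2-null and PyMT Ets2-present fibroblasts was 1.60, and with readings under the filter level raised to it 0.52. Probe set 1415931_at, made from the same reference transcript, was under the filter level on all 4 arrays (2.51, 2.77, 3.55 and 2.61) and ran the other way, by -0.94. The 2 probe sets disagree, and the array that read high is the one that read high in 39.7% of dim probe sets. No direction is given for Igf2.

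Igf1r, the receptor, was nearly level by its brighter probe set. Probe set 1426565_at read 6.06 with Ets2 and 5.98 without it in normal fibroblasts, and 5.68 with Ets2 and 5.40 without it in PyMT fibroblasts. The widest of its differences between compared groups, -0.59 for PyMT against normal without Ets2, was under the disagreement between probe sets. The dimmer 1452108_at, made from the same sequence record, read 3.17, 3.24, 3.02 and 5.16, and was thus 4.40-fold higher in PyMT Ets2-null than in PyMT Ets2-present fibroblasts. Only that last reading was above the filter level. As for Igf2, the high reading was on the PyMT Ets2-null array and a sister probe set did not share it (2.14 against -0.28).

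Igfbp2, a binding protein that also carries an integrin-binding RGD motif, had the widest range of the 9 genes, 4.54 between its lowest and highest array. Its single probe set, 1454159_a_at, read 6.29 with Ets2 and 4.38 without it in normal fibroblasts, and 6.03 with Ets2 and 8.92 without it in PyMT fibroblasts. The 2 Ets2-present arrays were nearly level, 0.26 apart, and the 2 Ets2-null arrays lay on opposite sides of them. Without Ets2, Igfbp2 was 3.76-fold lower in normal fibroblasts (-1.91) and 7.42-fold higher in PyMT fibroblasts (2.89). Within Ets2-null fibroblasts PyMT cells thus had 23.2-fold more Igfbp2 than normal cells (4.54). The normal Ets2-null reading was just under the filter level, and with it raised to that level the differences were -1.66 and 4.29. All of these exceeded the disagreement between probe sets, but there is no second probe set of Igfbp2 to set beside this one. Beside Igfbp2, the median level of the 8 pericyte and smooth muscle markers also was lowest in normal Ets2-null and highest in PyMT Ets2-null fibroblasts (6.55, 6.10, 7.37 and 8.96). Their summed linear level did not follow it, at 14542, 14179, 18110 and 17245. Upon Ets2 loss 1 of these 8 was higher and 7 lower in normal fibroblasts, and 4 were higher and 4 lower in PyMT fibroblasts. In PyMT against normal fibroblasts 7 were higher and 1 lower, both with Ets2 and without it. Des passed the filter through the PyMT Ets2-null array alone. The 9 epithelial markers had summed levels of 385, 212, 294 and 324. The part of either list in the Igfbp2 levels was not tested.

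Igfbp3, the chief carrier of IGF in blood, showed nearly the reverse order. Its single probe set, 1423062_at, read 8.06 with Ets2 and 9.32 without it in normal fibroblasts, and 7.12 with Ets2 and 5.85 without it in PyMT fibroblasts. It was highest where Igfbp2 was lowest and lowest where Igfbp2 was highest, and all 4 readings were above the filter level. Without Ets2, Igfbp3 was 2.40-fold higher in normal fibroblasts (1.26) and 2.41-fold lower in PyMT fibroblasts (-1.27). PyMT fibroblasts had 1.93-fold less with Ets2 (-0.95) and 11.1-fold less without it (-3.48). The Ets2 difference with the oncogene minus that without it was -2.53 for Igfbp3 and 4.80 for Igfbp2, where the SD of probe set disagreement was 0.86.

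**Figure D1:**
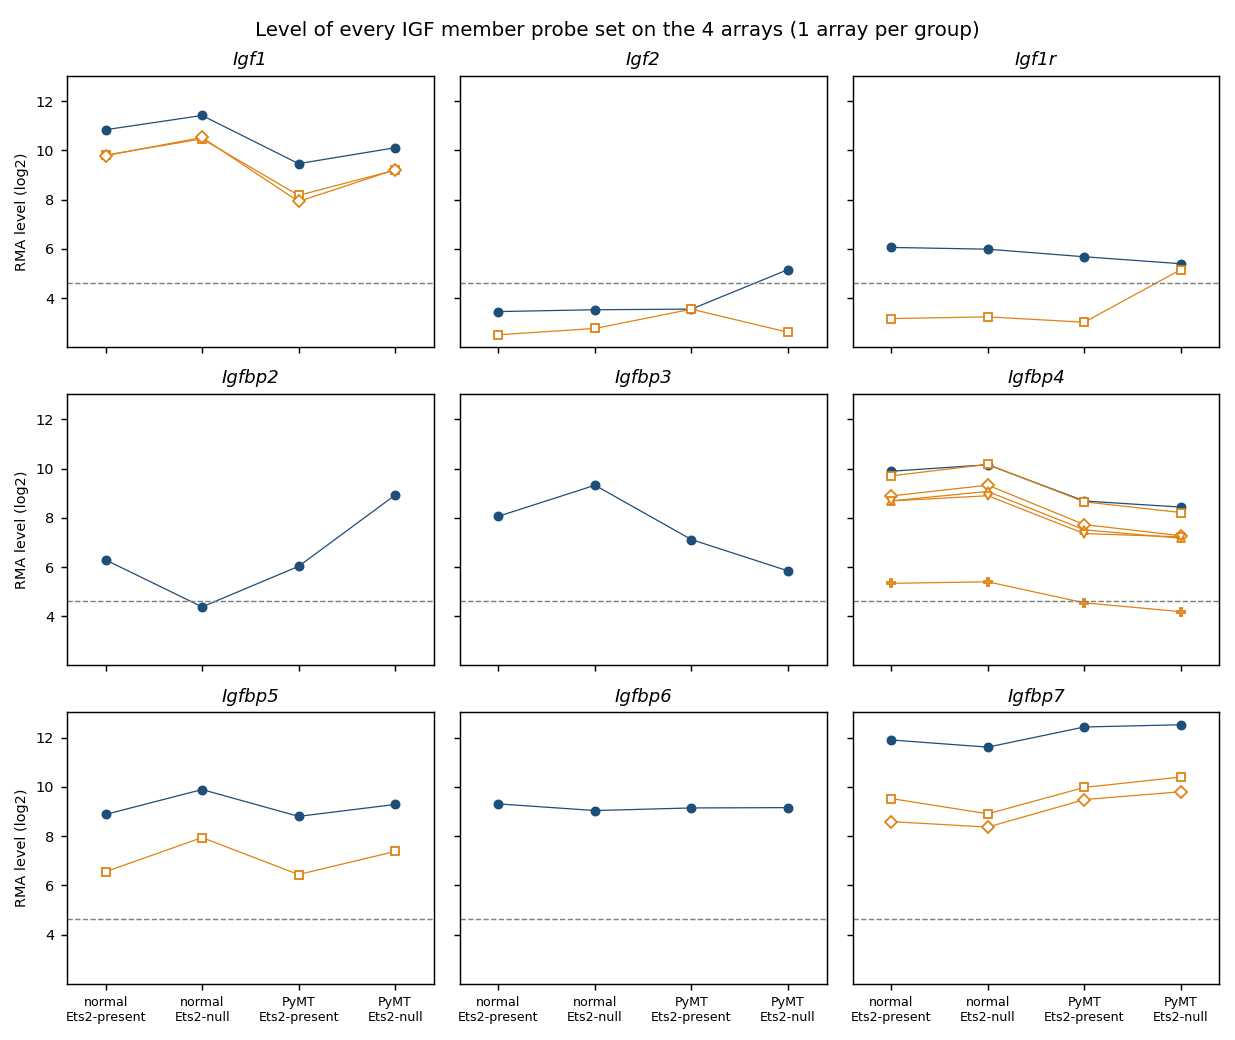
Log2 level (vertical axis) of each of the 21 probe sets on the 4 arrays (horizontal axis, 1 array per group), in a panel per gene. Filled blue points are the brightest probe set of the gene, open orange points its others, lines join readings of a probe set, and the dashed line is the filter level of 4.63. Igfbp2 ran from 4.38 to 8.92 and Igfbp3 from 9.32 to 5.85 between the 2 Ets2-null arrays, while the 3 probe sets of Igf1 kept the same order.

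Igfbp4, an inhibitor of IGF action that is removed by the protease PAPP-A, was lower in PyMT fibroblasts. It had 6 probe sets, the most of any member. The brightest, 1423756_s_at, read 9.89 with Ets2 and 10.16 without it in normal fibroblasts, and 8.68 with Ets2 and 8.44 without it in PyMT fibroblasts. Both PyMT arrays were below both normal arrays in each of the 6 probe sets. In the dimmest, 1421991_a_at, both PyMT readings were under the filter level (4.55 with Ets2 and 4.19 without), and its PyMT differences were the smallest. PyMT fibroblasts had 2.31-fold less Igfbp4 with Ets2 (-1.21, range over probe sets -1.33 to -0.79) and 3.29-fold less without it (-1.72, range -2.05 to -1.21). The Ets2 differences were small, from 0.06 to 0.46 in normal and from -0.45 to -0.13 in PyMT fibroblasts, all of them under the SD of probe set disagreement. Their signs were nevertheless the same in all 6 probe sets, above 0 in normal and below 0 in PyMT fibroblasts. They were designed in pairs from shared sequence records of the same gene, so they are not independent readings, and those with the suffixes s and x may also bind related transcripts.

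Igfbp5, which binds the matrix as well as IGF, was higher without Ets2 in normal fibroblasts. Its brightest probe set, 1452114_s_at, read 8.88 with Ets2 and 9.89 without it in normal fibroblasts, and 8.80 with Ets2 and 9.29 without it in PyMT fibroblasts. The other, 1422313_a_at, read 6.56, 7.94, 6.44 and 7.38. Both Ets2-null arrays were above both Ets2-present arrays in each probe set. In normal fibroblasts Igfbp5 was 2.01-fold higher without Ets2 by the first (1.01) and 2.61-fold by the second (1.38). In PyMT fibroblasts the differences were smaller, 0.48 and 0.94. The PyMT difference was close to 0 with Ets2 (-0.08 and -0.12) and -0.61 and -0.56 without it. The value of 0.48 in PyMT fibroblasts was under the SD of probe set disagreement (0.68). In normal fibroblasts Igfbp5 and its neighbour Igfbp2 thus differed in opposite directions upon Ets2 loss.

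Igfbp6, a binding protein that prefers IGF-II, varied least of the 9 genes, by 0.27 in all. It read 9.31 with Ets2 and 9.04 without it in normal fibroblasts, and 9.14 with Ets2 and 9.16 without it in PyMT fibroblasts, and its differences were all under the disagreement between probe sets.

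Igfbp7, a secreted relative that binds IGF weakly and is abundant in vascular and stromal matrix, was higher in PyMT fibroblasts. Its brightest probe set, 1423584_at, read 11.90 with Ets2 and 11.61 without it in normal fibroblasts, and 12.43 with Ets2 and 12.52 without it in PyMT fibroblasts. Both PyMT arrays were above both normal arrays in each of its 3 probe sets. The PyMT difference ran from 0.45 to 0.89 over the probe sets with Ets2 and from 0.91 to 1.49 without it. The brightest stayed under 2-fold in both (1.44-fold and 1.88-fold), whereas the dimmer 1437804_at was 2.82-fold and 1423585_at 2.70-fold higher in the Ets2-null comparison. The Ets2 difference was from -0.62 to -0.22 in normal and from 0.09 to 0.42 in PyMT fibroblasts.

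The effect of Ets2 loss in normal fibroblasts was counted over the members, each by its brightest probe set. Igfbp3 and Igfbp5 were at least 2-fold higher and Igfbp2 at least 2-fold lower, that is 2 and 1 of the 9 genes. Among the 8687 genes kept by the filter, 3.02% were at least 2-fold higher and 2.41% at least 2-fold lower. None of the 9 reached 4-fold, a size that 0.288% of the kept genes reached upward and 0.0806% downward. The median difference was 0.07 over the members and -0.02 over the kept genes, and the ligand and receptor genes all stayed under 2-fold.

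With the oncogene, Ets2 loss came with more Igfbp2 and less Igfbp3. Here 2 of the 9 were at least 2-fold higher, Igfbp2 and the near-background Igf2, and 1, Igfbp3, was at least 2-fold lower. The shares of kept genes were 7.64% and 7.77%. Igfbp2 alone reached 4-fold, as did 0.691% of the kept genes upward. Without Igf2, for which the probe sets disagree, the count higher is 1. Igf1 was under 2-fold by its brightest probe set, which entered the count, and above 2-fold by its other 2. The median was 0.09 over the members and 0.02 over the kept genes. By the subtraction of the 2 Ets2 differences, 2 members were at least 2-fold higher (Igfbp2 and Igf2) and 1 lower (Igfbp3), where 10.2% and 11.2% of the kept genes were. The probe sets of Igf2 gave 1.53 and -1.19 here, and the count higher is 1 without it. At 4-fold this left Igfbp2, with 1.75% of the kept genes higher, and Igfbp3, with 2.33% lower.

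**Figure D2:**
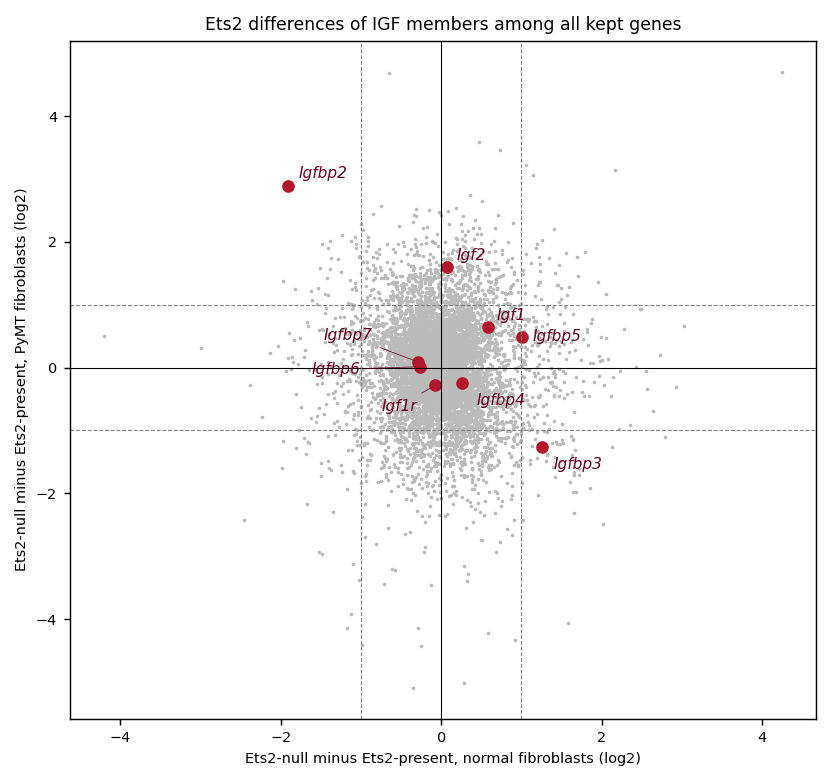
Log2 difference upon Ets2 loss in fibroblasts without the oncogene (horizontal axis) and with it (vertical axis), 1 array per group. Grey points are the 8687 kept genes, red points the 9 IGF genes by their brightest probe set, and dashed lines mark 2-fold. Igfbp2 (-1.91 and 2.89) and Igfbp3 (1.26 and -1.27) lie outside the 2-fold lines on both axes, in opposite corners.

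The effect of the oncogene was read by setting PyMT against normal fibroblasts. With Ets2 present, Igf1 and Igfbp4 were at least 2-fold lower and no member was at least 2-fold higher, so 2 and 0 of the 9, where 6.23% and 5.42% of the kept genes were. None of the 9 reached 4-fold, as 1.12% of the kept genes did downward and 0.84% upward. The median was -0.26 over the members and -0.01 over the kept genes. Below 0 were 7 of the 9 members and 4380 of the 8687 kept genes. Of these members, Igf1r (-0.38), Igfbp2 (-0.26), Igfbp5 (-0.08) and Igfbp6 (-0.16) were under the SD of probe set disagreement (0.51). Without Ets2, Igf1, Igfbp3 and Igfbp4 were at least 2-fold lower and Igfbp2 and Igf2 at least 2-fold higher, so 3 and 2 of the 9, where 11.2% and 9.69% of the kept genes were. Igf2 entered this count by its brightest probe set (1.63), which the other did not share (-0.15), and the count higher is 1 without it. At 4-fold this left Igfbp3, with 2.21% of the kept genes lower, and Igfbp2, with 1.29% higher. The median was -0.59 over the members and 0.05 over the kept genes. Igf1 and Igfbp4 were thus the members lower by 2-fold or more in both PyMT comparisons. The share of kept genes lower in both was not counted, so nothing is drawn from this overlap.

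**Figure D3:**
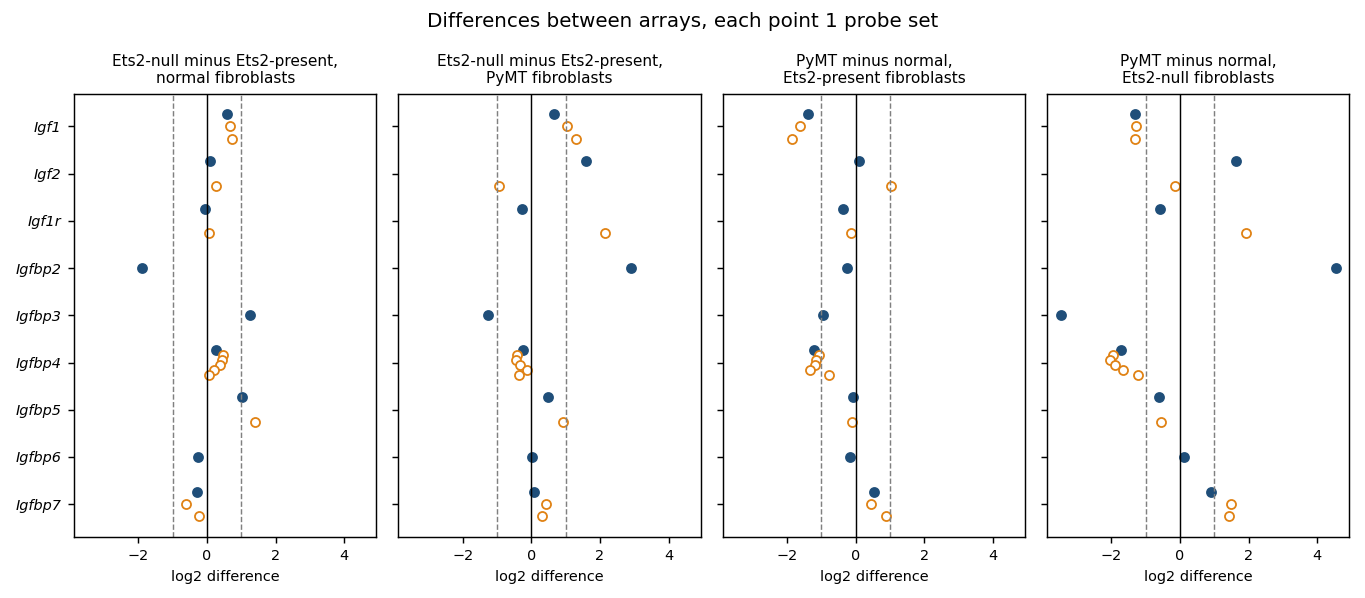
Log2 difference (horizontal axis) of each of the 21 probe sets, by gene (vertical axis), in the 4 comparisons between arrays. Filled blue points are the brightest probe set of a gene, open orange points its others, and dashed lines mark 2-fold. The probe sets of Igf1, Igfbp4, Igfbp5 and Igfbp7 lie close together, while those of Igf1r part in the comparisons that use the PyMT Ets2-null array and those of Igf2 in every comparison but that of Ets2 loss in normal fibroblasts.

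Other genes of the pathway were taken from a list of 47, of which 42 had a probe set of their own and 33 passed the filter. Igfbp1, Igfals, which encodes the partner of Igfbp3 in blood, and Igfbpl1 were under the filter level on every array. Upon Ets2 loss in normal fibroblasts 0 of the 33 were at least 2-fold apart in either direction, with a median of -0.03. In PyMT fibroblasts 1 was at least 2-fold higher and 5 lower without Ets2, with a median of 0.01. The 1 higher was Insrr, which passed the filter through the PyMT Ets2-null array alone, so this count rests on that reading. With Ets2, 2 were higher and 3 lower in PyMT fibroblasts (median -0.14), and without Ets2 3 were higher and 5 lower (median 0.14). Insrr was again among these 3, by the same reading. Among all kept genes, 3.02% were at least 2-fold higher and 2.41% lower upon Ets2 loss in normal fibroblasts. In PyMT fibroblasts these shares were 7.64% and 7.77%. For PyMT against normal fibroblasts they were 5.42% and 6.23% with Ets2, and 9.69% and 11.2% without it.

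Socs2, the feedback inhibitor of growth hormone signalling, differed most of the growth hormone axis. It read 9.46 with Ets2 and 9.58 without it in normal fibroblasts, and 9.07 with Ets2 and 7.05 without it in PyMT fibroblasts. It was 4.08-fold lower in PyMT cells without Ets2 than with it (-2.03), and its second probe set gave -1.84. Among IGFBP proteases and their inhibitors, Stc1, which encodes stanniocalcin-1, an inhibitor of PAPP-A, read 8.54, 8.94, 7.54 and 7.05, and was 2.00-fold lower in PyMT fibroblasts with Ets2 and 3.71-fold lower without it. Its other probe set was under the filter level on every array.

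In receptor signalling, Irs1, the docking protein of the IGF-I and insulin receptors, was lower in PyMT than in normal fibroblasts with Ets2 (2.01-fold) and close to level without it (0.17). Foxo1, a transcription factor that this pathway holds out of the nucleus, read 5.38, 6.07, 5.16 and 4.07. It was thus lower in PyMT Ets2-null than in PyMT Ets2-present fibroblasts (-1.10) and lower than in normal Ets2-null fibroblasts (-2.01), but its other 3 probe sets gave 0.66 to 0.75 for the latter. Pdpk1, the kinase that activates Akt, was lower upon Ets2 loss in PyMT fibroblasts (-1.11) by its brightest probe set and level by the other (0.03). Insrr, an orphan relative of the insulin receptor, read 5.19 in PyMT Ets2-null fibroblasts and was under the filter level on the 3 other arrays. Igf2r, which clears IGF-II, stayed under 2-fold by its brightest probe set in each comparison between 2 arrays. Its other probe set was 2.06-fold higher upon Ets2 loss in PyMT fibroblasts, and 2.11-fold higher in PyMT than in normal fibroblasts without Ets2. Plagl1, an imprinted transcription factor, read 8.54, 9.53, 8.85 and 7.83, higher without Ets2 in normal (0.99) and lower in PyMT fibroblasts (-1.02), while its other probe set was under the filter level on every array.

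Of the other secreted proteins with an IGFBP-like domain, Ccn3 was lower in PyMT fibroblasts with Ets2 (-1.49) and without it (-1.23), as Igf1 was, and its second probe set gave -1.43 and -1.36. Ccn5 was higher in PyMT fibroblasts without Ets2 (1.84) and under 2-fold higher with it (0.91). Kazald1 was higher in PyMT fibroblasts with Ets2 (2.55) and without it (1.76), and within PyMT cells lower without Ets2 (-1.29). Crim1 was higher in PyMT fibroblasts with Ets2 (1.02) and under 2-fold higher without it (0.91), and its second probe set gave 1.56 and 2.03.

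**Figure D4:**
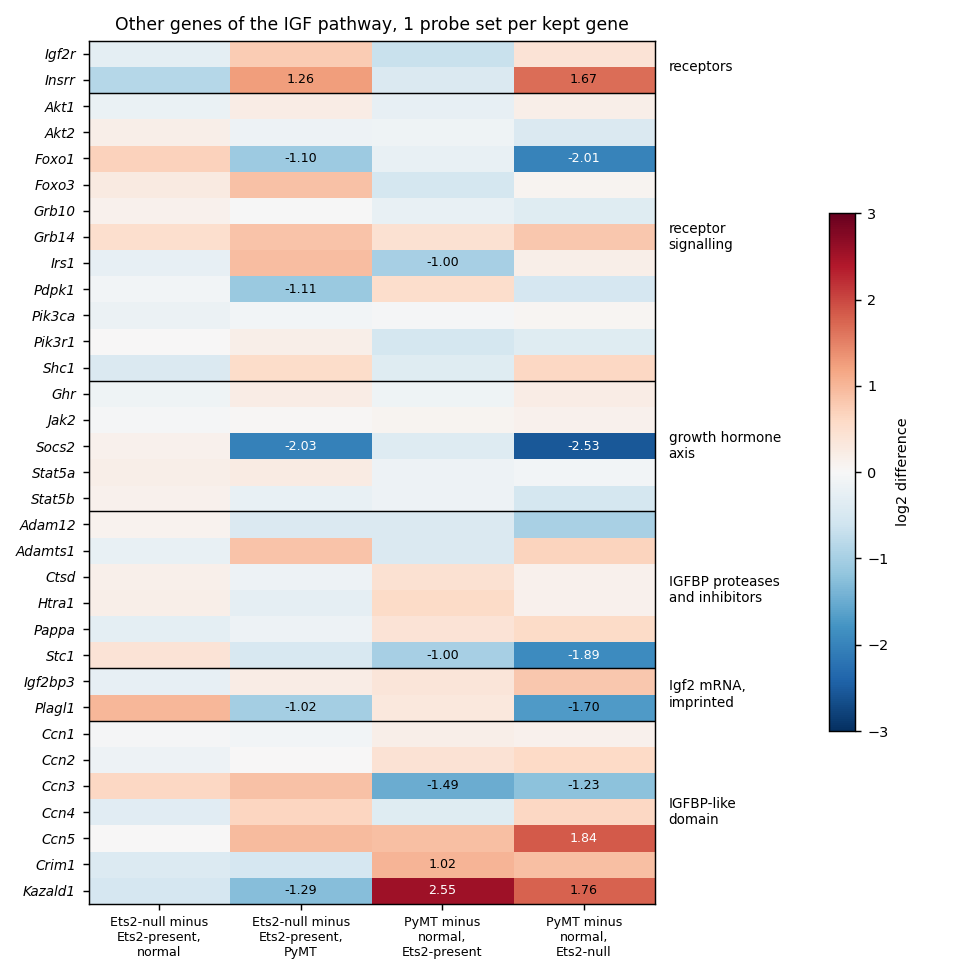
Log2 difference of 33 other genes of the IGF pathway (rows, grouped by role), each by its brightest probe set, in the 4 comparisons between arrays (columns). Red is higher and blue lower, and values of 2-fold or more are printed. The column for Ets2 loss in normal fibroblasts holds 0 such values, and Socs2 (-2.03 and -2.53) is the darkest blue row.

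The genes most like a member were named for the 3 members of widest range, by the root mean square distance between 4 log2 levels, each centred on the gene's own mean, over 4 arrays and 8687 genes. For Igfbp2 the nearest were Mcam (0.51), which encodes an adhesion molecule of pericytes and vessels, Calcrl (0.52), the receptor that binds adrenomedullin with its partner proteins, and Adamts5 (0.54), an aggrecan-degrading protease. All of these were lower without Ets2 in normal fibroblasts (-1.02, -1.38 and -1.25) and higher in PyMT fibroblasts (1.78, 1.57 and 1.52), each by less than Igfbp2. For Igfbp3 they were Lbp (0.18), which encodes a lipopolysaccharide-binding acute-phase protein, Dpt (0.22), the matrix protein dermatopontin, and Smoc2 (0.22), a matricellular protein. Their differences upon Ets2 loss were 1.66, 1.41 and 1.14 in normal and -1.47, -0.85 and -0.98 in PyMT fibroblasts. For Igf1 they were the transcriptional repressor Trps1 (0.03) and the mitotic spindle genes Aspm (0.06) and Nusap1 (0.07). Trps1 was under the filter level in PyMT fibroblasts (3.89 with Ets2 and 4.48 without), as was Lbp in PyMT Ets2-null fibroblasts (3.53). With 4 readings a gene, closeness in pattern is a description of these arrays.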

How the data were processed

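RNA of cultured fibroblasts was measured on 4 arrays, 1 per group, with groups taken from the labels' genotypes. The values in the deposited table are log2 levels per probe set, made by the authors with RMA (version not given in the sources used here), which corrects background, normalizes between arrays and summarizes probe sets. Which other arrays were processed together with these, if any, is not given. The table had 22690 probe sets, 64 of them controls. The platform annotation gave 1 gene for 20393, several for 691 and none for 1606. Scanner files were not used here, so no detection calls were made, and the number of arrays limits the precision.

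A gene was represented by its brightest probe set (highest mean) and kept if its highest value reached 4.63, the 40th percentile, which 8687 of 12394 genes and all 9 members did. Of the 21 member probe sets, 20 reached that level on some array and 16 on all. Log2 differences were taken between arrays, with Python 3.11.15, pandas 2.3.3 and numpy 2.4.6, and genes at least 2-fold and 4-fold apart were counted; the counting was checked on simulated data. No test was made, since a fit without the Ets2 by PyMT interaction would treat that interaction as error. Alternatives were the mean over probe sets, low values raised to the filter level, no filter, the 60th percentile, median centring and cyclic loess (limma 3.58.1 in R 4.3.3). The members, the pathway and marker lists and the naming rule (every member, pathway genes at least 2-fold apart in a comparison, and 3 nearest patterns for the 3 widest-ranging members) were chosen with earlier results of these data known. Igf2r, Igfbp1, Igfals and Igfbpl1 were named after their values were seen.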

Additional observations from a re-analysis of the deposited data

Results flagged for a closer look

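Several members differed in opposite directions upon Ets2 loss in normal and in PyMT fibroblasts, each by a single array per group, and none of these differences was tested. The Ets2 difference in PyMT minus that in normal fibroblasts was 4.80 for Igfbp2, -2.53 for Igfbp3, -0.51 for Igfbp4, 0.38 for Igfbp7 and 0.28 for Igfbp6. Only Igfbp2 and Igfbp3 were at least 2-fold apart on both sides. The same values apply to the PyMT difference, which had opposite signs with and without Ets2 for Igfbp2 (4.80) and Igfbp6 (0.28). The SD of disagreement between probe sets of a gene was 0.86 for this quantity. By the brightest probe sets the values for Igfbp4, Igfbp6 and Igfbp7 were under it. Over all probe sets the value ran from -0.90 to -0.34 for Igfbp4 and from 0.38 to 1.04 for Igfbp7, so some exceeded it. Igfbp6 differed by just 0.01 upon Ets2 loss in PyMT fibroblasts. Of the 8687 kept genes, 4094 were above 0 and 4582 below it upon Ets2 loss in normal fibroblasts. In PyMT fibroblasts 4453 were above 0 and 4227 below it. How many kept genes had opposite signs, or were 2-fold apart on both sides, was not counted.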

How the results depend on the processing

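Of 180 recomputed member differences, 171 moved by less than the disagreement between probe sets, 9 moved by more, and 0 of those at least 2-fold apart changed sign. The 9 were all of Igf2 or Igf1r. For Igf2, the Ets2 difference in PyMT fibroblasts was 0.33 as the mean over probe sets and 0.52 with low values raised. For Igf1r the mean over probe sets gave 0.93 in place of -0.28. Where Igf2 was lost from the count, 1 member was at least 2-fold higher in place of 2: upon Ets2 loss in PyMT fibroblasts and in the subtraction of Ets2 differences this held for the mean over probe sets, raised low values and the 60th percentile filter, and for PyMT against normal without Ets2 for the last 2 settings. At 4-fold the members apart were 0 of 3 for Ets2 loss in normal fibroblasts, 1 of 3 in PyMT fibroblasts, 0 of 2 for PyMT with Ets2 and 2 of 5 without it. All other counts stayed within 1.5 times, but for PyMT against normal without Ets2 the mean over probe sets kept a count of 2 higher with Igfbp7 (1.28) in place of Igf2 (0.74). Median centring moved the median over the kept genes by 0.10 upon Ets2 loss in PyMT fibroblasts, and under neither rescaling did Igfbp4, Igfbp6 or Igfbp7 change the sign of a difference. No paired analysis was possible because each group has 1 array, and no array could be left out. Signal near background limits Igf2, the dimmer Igf1r probe set, the dimmest Igfbp4 probe set and the normal Ets2-null reading of Igfbp2.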
